A study of Macaca mulatta with 30 samples.

Results

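Low-drinking rhesus macaques of an older cohort were compared with low-drinking macaques of 2 younger cohorts. The comparison used 10 of the 30 libraries of the series, chosen as those labelled LD: 4 from cohort 4 (the older group) and 3 each from cohorts 7a and 7b (the younger group of 6). RNA came from cortical Area 32, a medial prefrontal region, with 1 library per animal. All animals were male, and all had drunk 4% ethanol for more than 12 months, so that both groups share this exposure and no abstinent animals were used here. LD stands for animals that met none of the criteria for binge (BD), heavy (HD) or very heavy (VHD) drinking. The mean age at the end of drinking was 9.98 years in cohort 4, 5.7 years in cohort 7a and 7.18 years in cohort 7b, against 8.24, 4.18 and 5.69 years at the start. These ages are cohort means, so age and cohort cannot be told apart. The same contrast was measured in 12 BD, HD and VHD animals of these cohorts (5 from cohort 4, 5 from 7a and 2 from 7b), which share the cohorts but no animal with the low drinkers.

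Oligodendrocytes wrap axons in myelin, a stack of membrane held together by a small set of abundant proteins and rich in galactolipids. In primate cortex, myelin continues to be laid down well after birth, and prefrontal areas are among the last to be myelinated. Ageing cortex has in turn been studied for changes in glia, mitochondria, protein turnover, inhibitory neurons and the vascular and meningeal covering, and lists for these were examined together with lists for cell types. In bulk tissue, more cells of a type and more RNA per cell cannot be told apart.

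The values are normalized reads, the read number of a gene after the authors' upper-quartile scaling. The older libraries held 4392296 to 11585031 reads in the measured genes and the younger ones 7795749 to 13068498. This difference in depth was smaller than the spread between animals (two-sided exact permutation test, p = 0.476, n = 4 and 6). Replicate 1 of cohort 4 stood apart from the other 9 low drinkers. It was the shallowest library, it lay at 45.2 on the first principal component (24.4% of the variance) while the others lay between -16.7 and 5.04, and its median rank correlation with the others was the lowest, 0.980 against 0.987 to 0.991. List medians are given with and without it. Markers of cortical tissue were present in all groups, with summed levels of 32598 to 35299 normalized reads for excitatory neuron markers in the older and 30778 to 36873 in the younger libraries.

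Of 12755 tested genes, 0 passed an adjusted p of 0.05 in the limma test (0% called, the smallest adjusted p being 0.725), and 0 passed in edgeR, which gave 651 at an unadjusted p under 0.05. At an unadjusted p under 0.05, limma gave 674 genes, 5.28% of those tested: 356 higher in the older animals (2.79%) and 318 lower (2.49%). The share of 5.28% lay close to the threshold of 0.05 itself. All 4 older libraries lay above all 6 younger ones for 73 genes (0.572%) and below them for 58 genes (0.455%), and 50.1% of the genes had a difference above 0. For genes named by a small p, lack of overlap is read from the same libraries and is no further support. DESeq2 on the recovered reads gave an adjusted p under 0.05 for 9 genes (0.0706%). Of these, ST18, HAPLN2, MYRF, ERMN, OPALIN, CDH19 and COL9A2 were higher in the older animals, and PCMT1 and MRC1 were lower. Without replicate 1 of cohort 4 the DESeq2 count was 2, DZIP1 (higher) and PCMT1 (lower), while limma gave 0 genes at the adjusted threshold and 523 at the unadjusted one. Of these 523 genes, 286 were higher and 237 lower. No gene below is therefore described as changed by the limma test. Differences are log2 estimates of limma ± SE, older minus younger, on log2 of normalized reads plus 1. Adjusted p-values are of the same limma test over all 12755 genes.

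The myelin and oligodendrocyte genes stood highest of the 35 lists examined. The lists and their members were chosen with earlier results of these data known, so their ranks and counts are no independent test. All 20 listed myelin and oligodendrocyte genes were tested, and all 20 had a higher mean in the older low drinkers. The median difference was 0.72, against 0.00 over all tested genes. Of the 20, 15 had an unadjusted p under 0.05, all higher, beside 2.79% of all genes, and 0 passed the adjusted threshold. Without replicate 1 of cohort 4, all 20 were still higher, with a median of 0.50. In that fit 11 were under 0.05, beside 286 of all 12755 genes in that direction. With the first principal component of the cell type markers, the myelin genes included, as a term, the median was 0.18. The median was 0.55 against cohort 7a alone and 0.78 against cohort 7b alone, contrasts that share the cohort 4 animals. It was -0.15 for cohort 7b minus 7a.

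Summed over the 20 myelin and oligodendrocyte markers, the older libraries held 15511, 9789, 12025 and 8097 normalized reads for replicates 1 to 4. The cohort 7a libraries held 6575, 7941 and 9760 and the cohort 7b libraries 6447, 7019 and 7611. Replicate 1 of cohort 4 was the highest library, and replicate 4 of cohort 4 lay below replicate 3 of cohort 7a, so the summed levels of the groups overlapped. The plot of summed levels by cohort shows this beside 3 other lists.

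**Figure D1:**
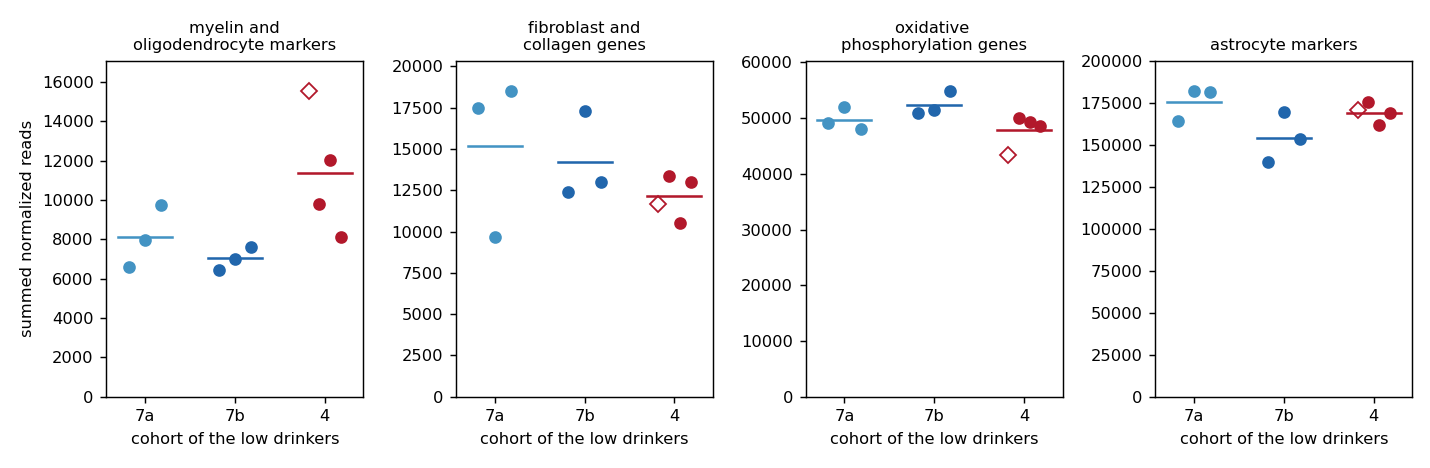
Summed normalized reads of 4 gene lists in the 10 low drinkers by cohort. Points are animals, bars are cohort means, and the open diamond is replicate 1 of cohort 4. The myelin sum reaches 15511 in that library and is 6447 to 9760 in the younger ones, while the astrocyte sums of the 3 cohorts overlap.

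Among the structural proteins of myelin, MBP encodes myelin basic protein, which holds the cytoplasmic faces of the membrane together. MBP stood at 1158, 659, 819.8 and 653 normalized reads in the cohort 4 libraries, at 483, 627 and 588 in cohort 7a and at 533, 543 and 527 in cohort 7b. Every older library lay above every younger one, with replicate 1 of cohort 4 well above the rest. The MBP difference was 0.54 ± 0.14 (limma adjusted p = 0.749) and 0.37 without that library. The adhesion proteins MAG and MOG, on the inner and outer surface of the sheath, differed by 0.72 ± 0.21 and 0.85 ± 0.23. MOBP, a small basic protein, differed by 0.77 ± 0.24, and CNP, an enzyme that keeps cytoplasmic channels open, by 0.49 ± 0.14. At the low end of the list stood CLDN11, the tight junction protein of myelin, at 0.14 ± 0.17 and CNTN2, an adhesion protein beside the nodes that neurons also make, at 0.19 ± 0.15. MAL, a raft protein of the sheath, lay between at 0.49 ± 0.22.

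The enzymes of myelin lipids had differences of like size. UGT8, which makes galactosylceramide, differed by 0.74 ± 0.20, FA2H, which hydroxylates its fatty acids, by 0.73 ± 0.29, and GAL3ST1, which adds the sulfate, by 0.54 ± 0.29. GAL3ST1 was low, at a mean log2 level of 4.11 ± 0.05 against 3.57 ± 0.45 (SD, n = 4 and 6), yet all older libraries lay above all younger ones. ASPA, which frees acetate from N-acetylaspartate, differed by 0.24 ± 0.20 and ENPP2, which makes lysophosphatidic acid, by 0.26 ± 0.11. Replicate 1 of cohort 4, the top library for most of the list, was for ASPA at a log2 level of 5.72, just under the younger mean of 5.74.

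MYRF, the transcription factor that switches on myelin genes in maturing oligodendrocytes, was measured at 577, 242, 294 and 225 normalized reads in cohort 4, at 144, 176 and 221 in cohort 7a and at 110.0, 143 and 162 in cohort 7b. No younger library reached the lowest older one. The MYRF difference was 0.99 ± 0.23 (limma adjusted p = 0.749), and all 21 of its 21 exons with reads had the same sign. The exon names place MYRF on chromosome 11 from 12351003 to 12384897 in a build that is not given in the sources used here. NKX6-2, a homeobox factor of late oligodendrocytes, differed by 0.92 ± 0.39 at a low level. OPALIN, a membrane protein of central myelin, and ERMN, an actin-binding protein of the outer sheath, differed by 0.87 ± 0.20 and 0.95 ± 0.22. In both, replicate 4 of cohort 4 lay within the younger range. TMEM125 had the greatest difference of the list, 1.13 ± 0.35, and KLK6, a secreted protease, the widest error, 0.86 ± 0.45.

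**Figure D2:**
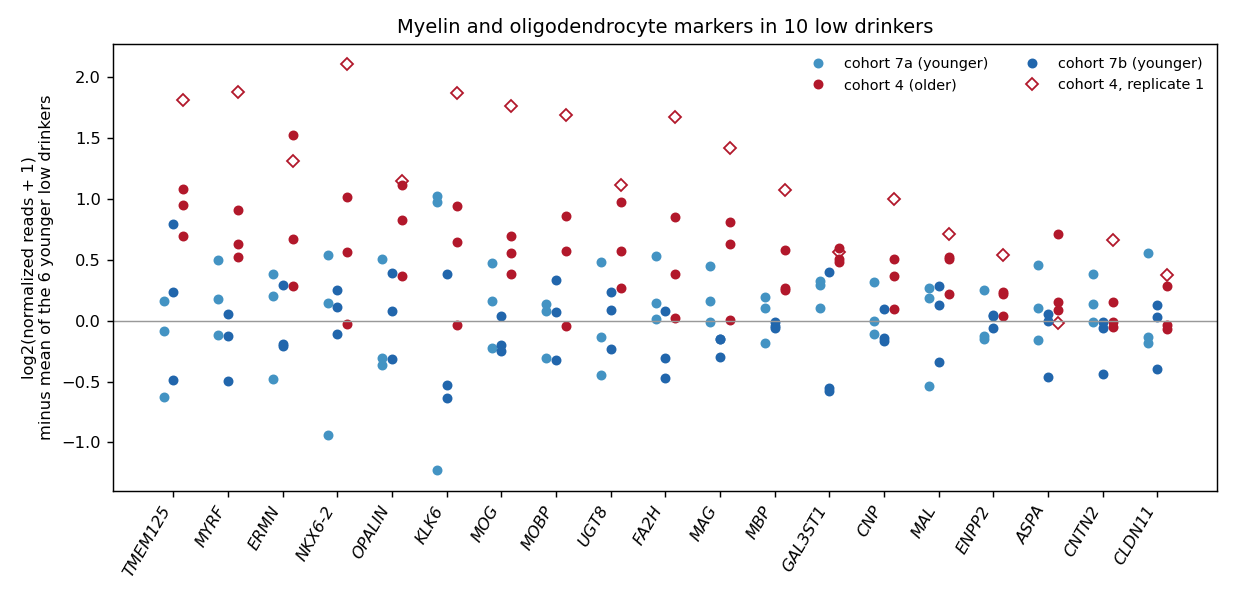
Log2 level of 19 of the 20 myelin and oligodendrocyte genes in each of the 10 low drinkers, minus the mean of the 6 younger animals (y axis, log2 units), genes ordered by their difference. Each point is an animal. The open diamonds, replicate 1 of cohort 4, top most genes, and the other 3 older animals are mostly above 0.

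Several genes outside the list that oligodendrocytes are known to use were among the 15 with the smallest p in the higher direction. ST18, a zinc finger transcription factor found in oligodendrocytes, stood at 242, 116, 183 and 105 normalized reads in cohort 4, 64.7, 71.6 and 104 in cohort 7a and 50.9, 70.1 and 79.5 in cohort 7b. The groups did not overlap, and the highest younger library lay just under the lowest older one. The ST18 difference was 1.08 ± 0.23 (limma adjusted p = 0.725) and 0.85 without replicate 1 of cohort 4. HAPLN2, a link protein of the matrix at the nodes of Ranvier, had 184, 123, 208 and 82.5 normalized reads in cohort 4, 84.7, 78.0 and 61.2 in 7a and 68.2, 68.4 and 76.0 in 7b. Replicate 4 of cohort 4 lay below replicate 1 of cohort 7a, and the other 3 older libraries were above all younger ones. Its difference was 0.95 ± 0.21. CDH19, a cadherin of the neural crest and oligodendrocyte lineage, differed by 0.89 ± 0.19, with all older libraries above all younger ones.

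Markers of oligodendrocyte precursors, the dividing cells from which oligodendrocytes arise, differed less. Of 13 listed genes 12 were tested, 10 were above 0, and the median was 0.11. The median was 0.07 with 8 genes above 0 without replicate 1 of cohort 4, -0.02 with the marker component as a term and -0.04 with the myelin level as a term. BCAS1, made by cells that are beginning to myelinate, differed by 0.64 ± 0.16, and VCAN, a chondroitin sulfate proteoglycan, by 0.32 ± 0.12. These were the 2 with an unadjusted p under 0.05, beside 2.79% of all genes in that direction. PDGFRA, the growth factor receptor that defines precursors, stood at 1212, 1144, 1072 and 980.2 normalized reads in cohort 4, 965, 1116 and 894 in 7a and 1096, 1077 and 1024 in 7b. The groups overlapped, with a difference of 0.10 ± 0.09. The lineage factors OLIG2 and SOX10 differed by 0.36 ± 0.17 and 0.33 ± 0.17, and by 0.19 and 0.15 without replicate 1 of cohort 4. Of the perineuronal net and matrix genes, 15 of 17 were tested. Beside 2.79% of all genes, 5 of these had an unadjusted p under 0.05, all higher. Among them were HAPLN2, VCAN, ADAMTS4, a protease that cuts such proteoglycans and that oligodendrocytes make (0.80 ± 0.29), and CHST3, a chondroitin sulfotransferase (0.47 ± 0.18). The median of that list was 0.13, and 0.03 without replicate 1 of cohort 4. Without that library 2 genes were higher under 0.05, beside 286 of all 12755 genes.

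Other genes with a small p in the higher direction have no known tie to myelin or a less certain one. DZIP1, a protein of the base of cilia, stood at 1667, 2266, 2258 and 2139 normalized reads in cohort 4, 1509, 1649 and 1668 in 7a and 1539.9, 1536 and 1741 in 7b. Replicate 1 of cohort 4 lay among the younger libraries, and the other 3 older libraries lay above all 6. Its difference was 0.36 ± 0.09 with that library and 0.47 without it. ANP32B, a histone chaperone, differed by 0.39 ± 0.09, SYNDIG1L by 0.83 ± 0.20 and CYB5R2, a cytochrome b5 reductase with few reads, by 1.36 ± 0.31. All older libraries were above all younger ones for these 3 genes and for COL9A2, a chain of a cartilage collagen (0.63 ± 0.14). ABCA8, a lipid transporter, and ADAMTS16, a secreted metalloprotease, differed by 0.51 ± 0.13 and 0.72 ± 0.18 with overlapping groups.

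In the lower direction, PCMT1 had the smallest p of all genes. It encodes the enzyme that repairs isoaspartyl residues, which form in proteins as they age. PCMT1 stood at 306, 242, 309 and 239 normalized reads in cohort 4, 393, 415 and 351 in cohort 7a and 443, 430.1 and 381 in cohort 7b. All older libraries lay below all younger ones, and replicate 1 of cohort 4 lay between the other older ones. The difference was -0.56 ± 0.11 (limma adjusted p = 0.725) and -0.61 without that library. Of its 6 exons with reads, 4 had the same sign. The exon names place PCMT1 on chromosome 6 from 116517354 to 116568140. MRC1, the mannose receptor of perivascular and meningeal macrophages, had 118, 131, 166 and 138 normalized reads in cohort 4, 231, 197 and 205 in 7a and 175, 271 and 216 in 7b. These groups did not overlap either, with a difference of -0.64 ± 0.13.

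The rest of the 15 genes with the smallest p in the lower direction are of mixed function. Lack of overlap among them is read from the same values as the p and is no added support. KLF9, a transcription factor induced by glucocorticoids and thyroid hormone, had 581, 781, 720.0 and 728 normalized reads in cohort 4, 889.7, 904 and 821 in 7a and 889, 908 and 802 in 7b, with no overlap. Its difference was -0.31 ± 0.09. BHMT, which methylates homocysteine with betaine, differed by -1.01 ± 0.22 at 24.8 to 84.8 normalized reads. The desmosomal cadherins DSC2 and DSC3 differed by -0.84 ± 0.20 and -0.56 ± 0.15, both without overlap. CA10, a secreted ligand of neurexins, differed by -0.24 ± 0.07, PET100, an assembly factor of cytochrome c oxidase, by -0.48 ± 0.14, and FRAS1, a matrix protein, by -0.47 ± 0.13, again without overlap. SLC10A6, PRSS45 and MYOZ3 also had no overlap, at low levels. SLC10A6 had 0, 3.66, 4.64 and 2.75 normalized reads in cohort 4 and 6.28 to 18.1 in the younger animals. Testing required 10 normalized reads in 4 or more low drinkers, and no older library reached 10 for SLC10A6. It therefore passed only through the younger libraries, so its lack of overlap follows in part from the filter. Whether PRSS45 and MYOZ3 passed through 1 group alone is not reported here, so their lack of overlap is not read further. CLIC6, a chloride channel relative rich in choroid plexus, differed by -1.23 ± 0.32 and TMEM38A, a cation channel of internal membranes, by -0.32 ± 0.09, with overlap in both.

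**Figure D3:**
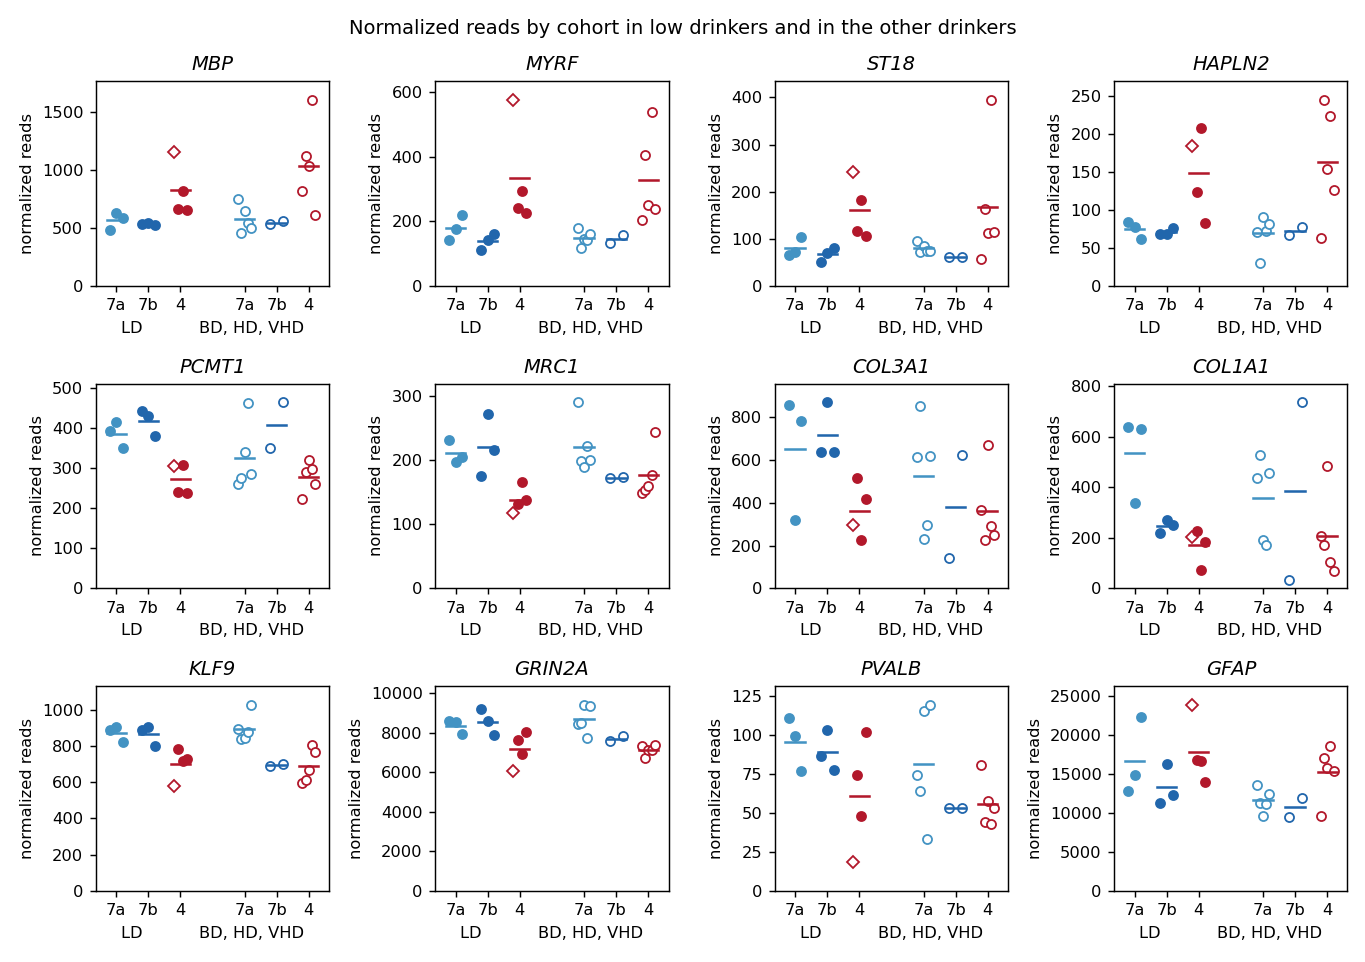
Normalized reads of 12 genes by cohort in the low drinkers (LD, filled points) and in the BD, HD and VHD animals (open points). Bars are cohort means, and the open diamond is replicate 1 of cohort 4. For PCMT1 the 4 older low drinkers sit at 239 to 309, below the 6 younger ones at 351 to 443, and for MYRF they sit above them.

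Collagens and other genes of fibroblasts, which lie in the meninges and around large vessels, stood lowest of the lists. This list too was chosen with earlier results of these data known. Of 20 listed genes 19 were tested, and 15 were lower in the older low drinkers, with a median of -0.36. Of these, 8 had an unadjusted p under 0.05, all lower, beside 2.49% of all genes, and 0 passed the adjusted threshold. Without replicate 1 of cohort 4, 15 were still lower, with a median of -0.18. In that fit 3 were under 0.05, beside 237 of all 12755 genes in that direction. The median was -0.21 without replicate 1 of cohort 7a and -0.23 without replicate 3 of cohort 7a. It moved to -0.05 with the marker component as a term and to -0.12 with the myelin level as a term. Summed reads of the list were 10537 to 13355 in the older libraries (median 12326) and 9656 to 18477 in the younger ones (median 15130), so the older range lay inside the younger one.

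COL1A1 and COL1A2 encode the chains of fibrillar type I collagen. COL1A1 stood at 205, 227, 74.2 and 182 normalized reads in cohort 4, at 640.2, 336 and 631 in cohort 7a and at 219, 273 and 253 in cohort 7b. Cohort 7b was nearer to cohort 4 than to cohort 7a, and only its replicate 1 fell inside the older range. The COL1A1 difference was -1.16 ± 0.34 (limma adjusted p = 0.751), with -1.69 against 7a, -0.64 against 7b and -1.05 for 7b minus 7a. All 35 of its 35 exons with reads had the same sign. COL1A2 differed by -1.06 ± 0.35. COL3A1, the type III chain, had 296, 515, 227 and 417 normalized reads in cohort 4, 856, 319 and 781 in 7a and 639, 871 and 636 in 7b. One younger library, replicate 2 of cohort 7a, lay within the older range, and the other 5 lay above it. Its difference was -0.90 ± 0.26, with the same sign in 46 of 46 exons. The small proteoglycans LUM and DCN differed by -0.56 ± 0.23 and -0.48 ± 0.20, FBLN1 by -0.45 ± 0.20, COL6A3 by -0.60 ± 0.27 and the transporter SLC6A20 by -0.82 ± 0.34. The basement membrane collagens COL4A1 and COL4A2, which vessels make, were at 0.17 ± 0.10 and 0.04 ± 0.18, and COL6A2 at 0.17 ± 0.21. IGF2, a growth factor made by meningeal and choroid cells, was also lower (-0.72 ± 0.29), with an unadjusted p under 0.05.

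Genes of oxidative phosphorylation, which encode the subunits of the respiratory chain and ATP synthase, were lower by small amounts. Of 48 listed genes 44 were tested and 41 were lower in the older low drinkers, with a median of -0.12. Of these, 9 had an unadjusted p under 0.05, all lower, beside 2.49% of all genes. Without replicate 1 of cohort 4 there were 35 of 44 below 0, with a median of -0.10. In that fit 5 were lower under 0.05 and 1 higher, beside 237 and 286 of all 12755 genes. The median was -0.06 with the marker component as a term and -0.04 with the myelin level as a term. The median was -0.08 against cohort 7a, -0.17 against 7b and 0.10 for 7b minus 7a, so the 2 younger cohorts differed from each other by about as much. COX7B, a subunit of cytochrome c oxidase, had 569, 626, 644 and 666 normalized reads in cohort 4, 660.2, 791 and 682 in 7a and 842, 745 and 833 in 7b. Replicates 1 to 3 of cohort 4 lay below all younger libraries, and replicate 4 lay just above the lowest. Its difference was -0.27 ± 0.09. NDUFA8 and NDUFB10, subunits of complex I, differed by -0.23 ± 0.08 and -0.21 ± 0.08 without overlap of the groups.

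Proteasome and ribosomal genes showed like small values. Of 31 proteasome genes 30 were tested and 24 were lower, while 50.1% of all genes had a difference above 0. Of the 30, 4 had an unadjusted p under 0.05, all lower, beside 2.49% of all genes, and the list's median was -0.08. The median was -0.06 without replicate 1 of cohort 4, -0.03 against cohort 7a, -0.14 against 7b and 0.13 for 7b minus 7a. PSMB6, a catalytic subunit, differed by -0.25 ± 0.08 without overlap, and PSMA5 by -0.30 ± 0.10. Of 57 ribosomal protein genes 56 were tested and 44 were lower. Of the 56, 4 had an unadjusted p under 0.05, all lower, beside 2.49% of all genes, and the list's median was -0.07. That median was also -0.07 without replicate 1 of cohort 4. It was -0.01 against cohort 7a, with 26 of 56 above 0, and -0.11 against 7b, while 7b minus 7a was 0.11. RPS24 and RPS28 differed by -0.45 ± 0.17 and -0.33 ± 0.11. Ribosomal protein genes have many near-identical copies in the genome, and the way the authors' counting treated reads shared with them is not given in the sources used here.

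**Figure D4:**
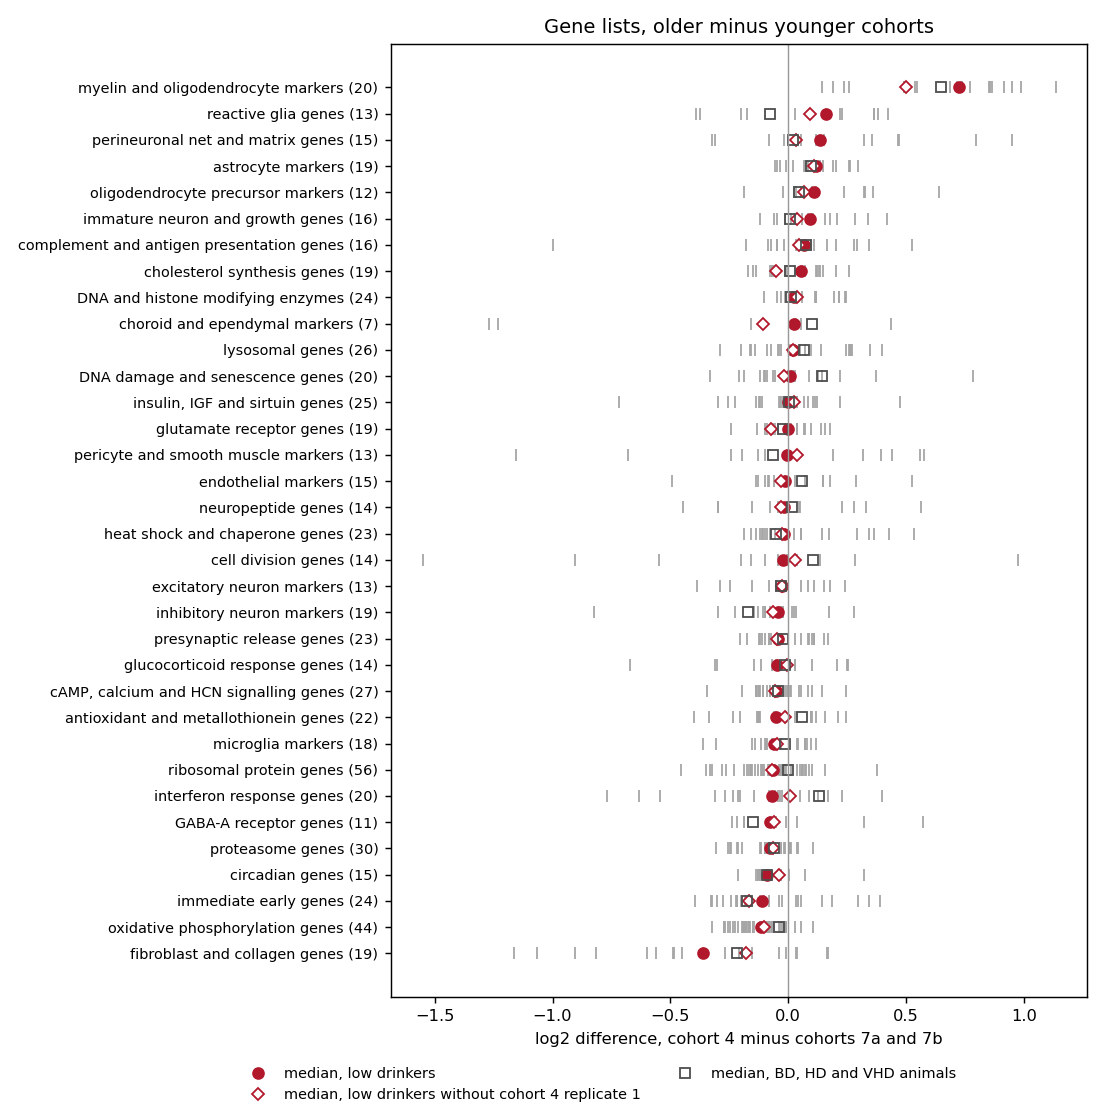
Log2 difference between the older and younger cohorts for the 34 gene lists with at least 5 tested members (number in parentheses). Grey ticks are single genes in the low drinkers, filled circles their median, open diamonds the median without replicate 1 of cohort 4, and open squares the median in the BD, HD and VHD animals. The myelin list stands at 0.72, 0.50 and 0.65 on these 3 measures, and most other lists lie within 0.2 of 0.

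The neuronal marker lists had medians near 0. Of the excitatory neuron markers 13 of 18 were tested, with a median of -0.03 with and without replicate 1 of cohort 4 and 0 under an unadjusted p of 0.05 in limma. Of the inhibitory neuron markers 19 of 20 were tested, 14 were lower, and the median was -0.04 (-0.07 without replicate 1 of cohort 4). Beside 2.49% of all genes, 1 of the 19 was lower at an unadjusted p under 0.05. That gene was PVALB, the calcium buffer of fast-spiking interneurons, at 18.6, 74.5, 48.0 and 102 normalized reads in cohort 4, 111, 99.3 and 77.0 in 7a and 86.6, 103 and 77.4 in 7b. Replicate 1 of cohort 4 had by far the lowest value, and replicate 4 of cohort 4 lay among the younger animals. The PVALB difference was -0.82 ± 0.33 with replicate 1 and -0.35 without it, when its unadjusted p was over 0.05. SST, VIP, NPY and CALB1, which mark other interneurons, differed by 0.28, -0.30, 0.23 and -0.04 with SEs of 0.21, 0.16, 0.28 and 0.11, and none had an unadjusted p under 0.05. CRH, the stress peptide, differed by -0.45 ± 0.19 with an unadjusted p under 0.05, and over 0.05 without replicate 1 of cohort 4.

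Among receptors, GRIN2A, a subunit of NMDA glutamate receptors that becomes common as synapses mature, stood at 6061, 7617, 6939 and 8004 normalized reads in cohort 4. In cohort 7a it stood at 8569, 8516 and 7909 and in cohort 7b at 9196, 8568 and 7868. Replicate 4 of cohort 4 overlapped the younger range and the other 3 lay below it. The GRIN2A difference was -0.24 ± 0.08 (limma adjusted p = 0.886), and -0.17 without replicate 1. GRIN2A was the 1 of 19 tested glutamate receptor genes with an unadjusted p under 0.05, beside 2.49% of all genes lower at that threshold. GRIN2B differed by -0.10 ± 0.07. The median of the glutamate receptor list was -0.0025, and -0.07 with 14 of 19 below 0 without replicate 1 of cohort 4. Of 11 tested GABA-A receptor genes, 8 were lower, with a median of -0.08 (-0.06 without replicate 1 of cohort 4). GABRA2 differed by -0.19 ± 0.08 and was the 1 gene of that list under 0.05, again beside 2.49% of all genes. GABRA5 differed by 0.04 ± 0.22. In the presynaptic release list 0 of 23 had a limma unadjusted p under 0.05, with a median of -0.04 (-0.05 without replicate 1 of cohort 4). Of the cAMP and calcium signalling genes 2 of 27 did, ADCY2 and CAMK4, at -0.20 ± 0.07 and -0.34 ± 0.13, beside 2.49% of all genes lower. The median of that list was -0.05 with and without replicate 1 of cohort 4.

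Immediate early genes, which are switched on within minutes of neuronal activity, had a median of -0.11 over 24 tested genes, with 16 lower, and -0.17 with 20 lower without replicate 1 of cohort 4. KLF10, DUSP6 and PTGS2 had an unadjusted p under 0.05, at -0.40 ± 0.14, -0.28 ± 0.11 and -0.33 ± 0.13, beside 2.49% of all genes. Against cohort 7a the median was -0.19, against cohort 7b it was 0.02, so the sign held against 1 of the 2 younger cohorts. BDNF, an activity-dependent growth factor, differed by -0.20 ± 0.18, and by -0.39 without replicate 1 of cohort 4, when its unadjusted p was under 0.05. Genes of immature neurons and growth had a median of 0.09 over 16 genes, 12 of them above 0. The median was 0.20 against cohort 7a and -0.04 against 7b, with 6 of 16 above 0 in the latter. It was 0.04 without replicate 1 of cohort 4 and 0.03 without replicate 3 of cohort 7a. SOX11, a factor of immature neurons, and MARCKSL1 had an unadjusted p under 0.05, at 0.34 ± 0.15 and 0.42 ± 0.15, beside 2.79% of all genes. Without replicate 1 of cohort 4 both had an unadjusted p over 0.05. DCX, which marks migrating neurons, was at 0.03 ± 0.09.

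Astrocyte markers had a median of 0.12 over 19 tested genes (0.11 without replicate 1 of cohort 4), 15 of them higher, and 0 with an unadjusted p under 0.05 in limma. GFAP, the filament of astrocytes, stood at 23852, 16770.0, 16603 and 13878 normalized reads in cohort 4, 12787, 14814 and 22293 in 7a and 11304, 16275 and 12238 in 7b. The highest 2 libraries were replicate 1 of cohort 4 and replicate 3 of cohort 7a, and the groups overlapped. Its difference was 0.26 ± 0.17, and APOE, the lipid carrier of astrocytes, was at -0.01 ± 0.10. Of the reactive glia genes 13 of 14 were tested, with a median of 0.16 (0.09 without replicate 1 of cohort 4) and 0 under 0.05 in limma, and VIM, an intermediate filament, was at -0.39 ± 0.19. Microglia markers had a median of -0.06 over 18 tested genes (-0.05 without replicate 1 of cohort 4), with 0 under 0.05 in limma, and C1QA, a complement chain made by microglia, was at -0.31 ± 0.21. Of the 20 microglia markers, TMEM119 was under the filter.

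Vascular lists were mixed. Endothelial markers had a median of -0.01 over 15 tested genes (-0.03 without replicate 1 of cohort 4). CD34 was the 1 with an unadjusted p under 0.05 (0.52 ± 0.18), beside 2.79% of all genes higher. Beside 2.79% of all genes, 3 of 13 tested pericyte and smooth muscle markers had an unadjusted p under 0.05, all higher. These were NOTCH3, PDGFRB and ABCC9, at 0.44 ± 0.16, 0.32 ± 0.13 and 0.39 ± 0.17, genes known from pericytes. The list as a whole had 7 of 13 members below 0, the lowest at -1.15, and a median of -0.0046. That median was 0.04 without replicate 1 of cohort 4, 0.19 against cohort 7a and -0.12 against cohort 7b. The summed levels of that list were 2891 to 3323 normalized reads in the older and 2008 to 6052 in the younger libraries. Of 13 blood cell markers 1 was tested, and the sums of the list were 47.6 to 57.2 normalized reads in the older and 32.1 to 63.6 in the younger libraries. Of 12 choroid and ependymal markers 7 were tested, with a median of 0.02 (-0.11 without replicate 1 of cohort 4). TTR, the defining transcript of choroid plexus, stood at 0 and 1.24 normalized reads in replicates 1 and 2 of cohort 4 and at 3.21 to 26.8 in the other 8 low drinkers, so its level was low in all of them. KL, a choroid and neuronal gene named for its part in ageing, was at -0.16 ± 0.23.

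Lists drawn from the general biology of ageing were read against 5.28% of all tested genes with an unadjusted p under 0.05. In the DNA damage and senescence list there were 0 of 20 in limma, with a median of 0.01 (-0.02 without replicate 1 of cohort 4) and CDKN1A at -0.10 ± 0.19, while CDKN2A was under the filter. In the antioxidant and metallothionein list there were 2 of 22, GPX1 and SRXN1, both lower (-0.34 ± 0.11 and -0.23 ± 0.10). The median of that list was -0.05, and -0.01 without replicate 1 of cohort 4. In the insulin, IGF and sirtuin list there were 2 of 25, IGF2 and IGFBP5, the latter higher at 0.47 ± 0.16, and IGF1 was at -0.11 ± 0.13. The median of that list was 0.00013, and 0.02 without replicate 1 of cohort 4. Of the circadian genes 0 of 15 passed 0.05 in limma, with 12 lower and a median of -0.09 (-0.04 without replicate 1 of cohort 4).

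Among lysosomal genes 6 of 26 had an unadjusted p under 0.05, 4 higher, among them CLN3 (0.27 ± 0.10), and 2 lower, ASAH1, acid ceramidase, and CTSB, a cathepsin (-0.29 ± 0.09 and -0.20 ± 0.08). Beside this, 5.28% of all genes had such a p, and the list's median was 0.02. The counts without replicate 1 of cohort 4 were 2 higher and 3 lower, beside 286 and 237 of all 12755 genes in that fit. The list's median was again 0.02. In the chaperone list 3 of 23 were higher under 0.05, beside 2.79% of all genes. The 3 were HSPA2, CRYAB and HSPB8, at 0.53 ± 0.17, 0.43 ± 0.18 and 0.29 ± 0.12. CRYAB is also abundant in oligodendrocytes. Of the 23 chaperone genes 13 were below 0, with a median of -0.02. The median without replicate 1 of cohort 4 was -0.03. In that fit 1 gene was higher and 1 lower under 0.05, beside the same 286 and 237 of all genes. Cell division genes had 1 higher and 3 lower under 0.05 among 14 tested, beside 2.79% and 2.49% of all genes, with a median of -0.02. These were 0 higher and 2 lower in limma without replicate 1 of cohort 4, again beside 286 and 237 of all genes. The list's median in that fit was 0.03. BUB1, a mitotic checkpoint kinase, had 4.14, 3.66, 0.773 and 7.34 normalized reads in cohort 4 and 7.67 to 20.3 in the younger animals. No older library reached 10 normalized reads for BUB1, so it passed the filter only through the younger libraries. Its separation follows in part from the filter and rests on few reads. CCNB1 differed by -0.55 ± 0.18. MKI67 was under the filter. DNA and histone modifying enzymes had 20 of 24 above 0 with a median of 0.03 (0.04 without replicate 1 of cohort 4), and KAT2A, a histone acetyltransferase, was at 0.24 ± 0.10.

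The complement and interferon lists had medians of 0.07 and -0.07. The complement median was 0.04 without replicate 1 of cohort 4 and -0.01 without replicate 3 of cohort 4. The interferon median was 0.0053 without replicate 1 of cohort 4, with 10 genes above 0 and 10 below. It was -0.0008 against cohort 7a and -0.20 against 7b, and 0.13 in the BD, HD and VHD animals. The complement and interferon counts at an unadjusted p under 0.05 were 1 of 16 (CFB) and 0 of 20 in limma, beside 5.28% of all genes. Cholesterol synthesis genes, which supply myelin with its main sterol, had a median of 0.05 over 19 genes and 0 under 0.05 in limma. The median turned to -0.05 without replicate 1 of cohort 4, with 13 of 19 below 0, and was 0.05 against cohort 7a and -0.07 against 7b. Of 14 glucocorticoid response genes 2 were lower under 0.05, beside 2.49% of all genes. The 2 were KLF9 and CRISPLD2, the latter at -0.67 ± 0.24. The list's median was -0.05, and -0.01 without replicate 1 of cohort 4.

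Taken cohort by cohort, the 3-cohort fit gave 0 genes at the adjusted threshold for each contrast in limma. At an unadjusted p under 0.05 there were 570 genes for cohort 4 against 7a (4.47%), 998 for cohort 4 against 7b (7.82%) and 816 for cohort 7b against 7a (6.4%). The count between the 2 younger cohorts thus lay between the counts against the older one. It was 440 without replicate 1 of cohort 7b and 437 without replicate 3 of cohort 7a. Without replicate 3 of cohort 7b, 1 gene passed the adjusted threshold, MPRIP, which was lower in cohort 7b by a difference of -0.86 (limma adjusted p = 0.0443). For ST18 the differences against 7a and 7b were 0.95 and 1.20, for MYRF 0.80 and 1.18, and for PCMT1 -0.50 and -0.61. The 7b minus 7a difference was -0.25 for ST18, -0.38 for MYRF and 0.11 for PCMT1. The mean level of cohort 7b, of intermediate mean age, thus did not lie between those of cohorts 7a and 4 for these 3 genes. The 2 younger cohorts held 3 low drinkers each, and the 3 genes were named for their older minus younger difference. These 7b minus 7a values are therefore descriptive only.

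Among the 12 BD, HD and VHD animals, the same contrast was fitted with drinking category as a term. No VHD animal came from cohort 4, so the VHD animals carried no weight in the contrast. The cohort 4 animals of this set were mostly BD. The contrast gave 0 genes at the adjusted threshold in limma and 491 at the unadjusted one (3.85%). Of these, 278 were higher (2.18%) and 213 lower (1.67%). A difference above 0 was found for 51% of the genes. The unadjusted count was 850 without replicate 1 of the BD animals of cohort 7b, and 1219 without the category term. Of the 674 genes under 0.05 in the low drinkers, 514 (76.3%) had the same sign in these animals, beside 60.2% of all 12755 genes. The share was 79.8% for the 356 higher genes and 72.3% for the 318 lower ones. Members of the 2 sets come from the same cohorts, so a difference between cohorts other than age would be shared by both.

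The myelin list was higher in this set too, with 20 of 20 genes above 0 and a median of 0.65. Of the 20, 6 were higher under an unadjusted p of 0.05, beside 2.18% of all genes. Summed reads were 6630 to 25731 in the 5 cohort 4 animals (median 9512) and 5730 to 9046 in the 7 younger ones (median 6445). MYRF stood at 204, 404, 249.6, 540.2 and 239 normalized reads in the cohort 4 animals and at 117 to 179.9 in the younger ones, and its difference was 0.89 ± 0.23. All 5 were above the younger range. The sums and levels in normalized reads in this paragraph are not adjusted for drinking category. MBP stood at 820.0, 1119, 1030.5, 1606 and 610.0 and at 458 to 753, with a difference of 0.53 ± 0.18 and overlapping groups. ST18 and HAPLN2 differed by 0.80 ± 0.38 and 0.92 ± 0.35.

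Fibroblast and collagen genes were lower in 14 of 19 cases in this set, with a median of -0.22. Of these, 5 were under 0.05, beside 1.67% of all genes in that direction. COL1A1 was at -1.13 ± 0.47, COL1A2 at -0.84 ± 0.32 and COL3A1 at -0.43 ± 0.29. Among the 5 genes with the smallest p in this set in the lower direction were SLC13A4, PTGDS, CFB and RPL29. SLC13A4, a sulfate transporter, and PTGDS, a prostaglandin synthase, are both abundant in meninges. They were at -0.79 ± 0.17 and -0.52 ± 0.12, and in the low drinkers at -0.86 ± 0.41 and -0.40 ± 0.29. In the higher direction SLC5A8, CSRP1, BTN2A1 and MYRF were among the 5. PCMT1 was at -0.40 ± 0.17, MRC1 at -0.20 ± 0.18, KLF9 at -0.18 ± 0.12 and DZIP1 at 0.09 ± 0.09. The desmocollins DSC2 and DSC3 were at 0.02 ± 0.27 and 0.12 ± 0.22, and BHMT at -0.06 ± 0.33.

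**Figure D5:**
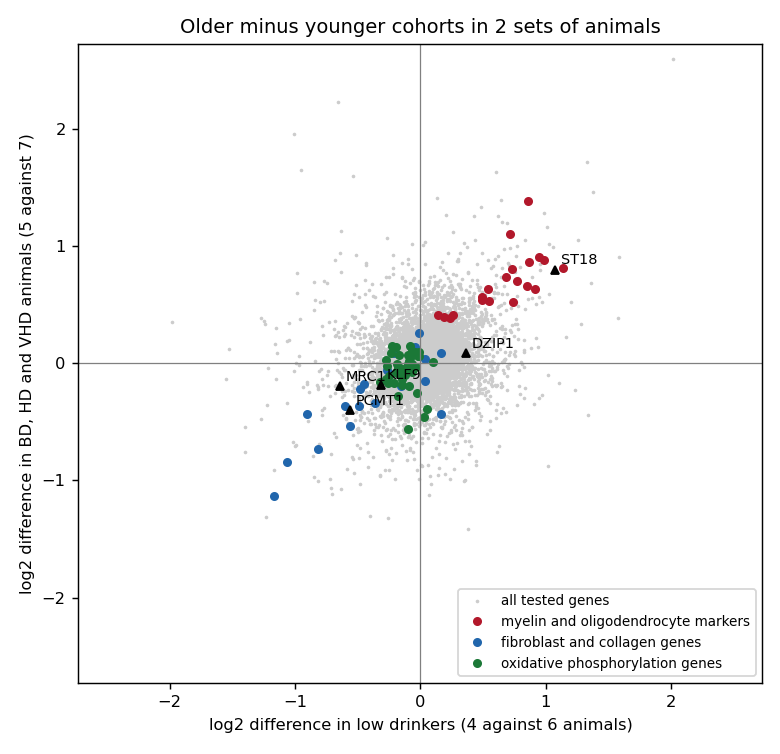
Log2 difference between older and younger cohorts for each of the 12755 tested genes in the low drinkers (x axis) and in the BD, HD and VHD animals (y axis, estimated with drinking category as a term). Each point is a gene. The 20 myelin genes lie in the upper right, type I and III collagens in the lower left, and DZIP1 lies near 0 on the y axis.

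For other lists the values of the BD, HD and VHD animals stand beside those above. Oxidative phosphorylation genes had 29 of 44 below 0 and a median of -0.04, and ribosomal protein genes 28 of 56 and a median of 0.00. Immediate early genes had 21 of 24 below 0, a median of -0.17 and 5 lower under 0.05, beside 1.67% of all genes. Inhibitory neuron markers had 17 of 19 below 0 and a median of -0.17. GRIN2A was at -0.18 ± 0.08, GABRA2 at -0.22 ± 0.08, PVALB at -0.18 ± 0.32 and GFAP at 0.36 ± 0.15.

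The difference between the cohort contrasts of the 2 sets was tested directly as an interaction over 22 libraries. In limma, 0 genes passed the adjusted threshold and 251 had an unadjusted p under 0.05 (1.97%), a count that was 463 without replicate 1 of the BD animals of cohort 7b. The genes with the smallest p for a larger value in the BD, HD and VHD animals were SLC10A6, KBTBD12, ADPRH, CCDC115 and MMP21. For a larger value in the low drinkers they were DNAJB13, PLSCR1, SNX7, ARHGEF26 and ZNF514. SLC10A6 passed the filter only through the younger low drinkers, so its lower level in the older low drinkers follows in part from the filter. KBTBD12 was at -0.64 ± 0.27 in the low drinkers and at 0.94 ± 0.31 in the others, and ARHGEF26 at 0.41 ± 0.12 and -0.28 ± 0.17. No gene can be called particular to the low drinkers from this test.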

How the data were processed

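Total RNA of cortical Area 32 was sequenced from 1 library per animal. Per the submitters' processing notes, CASAVA, FastQC, STAR 2.3.0e and edgeR were used, and the genome build is not given in the sources used here. The deposited signal values are read counts per gene to which the authors applied upper-quartile scaling, as the name of the deposited table says, and dividing by the value of 1 read gave whole reads for 100% of values (tolerance 0.01). Groups came from the drinking category and cohort in the labels.

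Of 15521 genes, 12755 reached 10 normalized reads in 4 or more low drinkers and were tested, and 2766 did not. The test was limma 3.58.1 (R 4.3.3) with a mean-variance trend on log2 of the value plus a pseudocount of 1, two-sided, with Benjamini-Hochberg adjustment over all tested genes and a threshold of 0.05. Fold changes on this scale understate changes of low genes. A second fit kept the 3 cohorts apart, another compared older with younger BD, HD and VHD animals with category as a term, and the last tested the difference between the sets. edgeR 4.0.16 and DESeq2 1.42.0 on the recovered reads, other pseudocounts, filters and scalings, added terms and leaving out each library were alternatives. The limma and edgeR fits of older against younger low drinkers were also run on simulated counts, drawn separately for each gene. DESeq2 was not part of that run, and its outcome is not reported here. Exons are those of the authors' exon names that reached 5 normalized reads in 4 or more low drinkers. Depth was compared with scipy 1.17.1 (Python 3.11.15). Plots were made in matplotlib 3.10.9.

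Genes were named by rule: the 15 with the smallest p in each direction, up to 4 members of each list, a fixed set of 24 genes, and the 5 with the smallest p in each direction of the other contrasts. Other members of the myelin and fibroblast lists, and MPRIP, were named after their values were seen. Members and lists were chosen with earlier results of these data known. CALB2 and DNMT3A have no row of that name and were not analysed here. Some genes that these rules name are not reported here. The libraries are separate animals.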

Additional observations from a re-analysis of the deposited data

Results flagged for a closer look

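Of 234 groups of values checked, 14 held a library whose distance from the nearest other made up an unusually large share of the group's range, and chance alone gives about 1 in 20 such groups. All values are log2 levels. Replicate 1 of cohort 4, the library that stood apart in depth and on the first principal component, was the lowest older library for FRAS1 at 8.496 (others 9.03 to 9.14), for the ATP synthase subunit ATP5C1 at 9.42 (others 9.79 to 9.84) and for the antioxidant gene SRXN1 at 8.29 (others 8.65 to 8.72). It was also lowest for the mean of the oxidative phosphorylation genes, at 9.28 against 9.40 to 9.43.

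Replicate 3 of cohort 4 was the highest older library for CDH19 at 6.70 (others 6.06 to 6.14) and for SYNDIG1L at 6.44 (others 6.09 to 6.14), and replicate 4 was the lowest for CALB1 at 9.80 (others 10.0 to 10.03). Among the younger animals, replicate 1 of cohort 7b was lowest for TMEM38A at 8.41 and for the growth factor receptor FGFR3 at 9.52 (others 10.18 to 10.504), and highest for RPS28 at 9.52 (others 9.03 to 9.18). Replicate 2 of cohort 7a was lowest for COL3A1 at 8.32 (others 9.32 to 9.77). Replicate 3 of cohort 7a was highest for FRAS1 at 9.79, replicate 1 of cohort 7a was highest for GRIN2B at 12.33, and replicate 3 of cohort 7b was lowest for IGF1 at 8.04.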

How the results depend on the processing

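Of 114 genes followed through 28 alternatives, 87 kept their direction in all of them, and 22 of 35 list medians moved by less than 1 SD in all. At the adjusted threshold, the count between older and younger low drinkers was 0 in every limma and edgeR setting, 9 in DESeq2 and 2 in DESeq2 without replicate 1 of cohort 4, an alternative chosen after seeing the data. The unadjusted count of 674 was 1233 in a fit over all 30 libraries, 389 with a marker component as a term and 303 with the myelin level as a term, the last also chosen after seeing the data, and it ran from 523 to 789 when each library was left out in turn. The corresponding leave-one-out ranges were 437 to 1138 for cohort 7b against 7a (0 to 1 at the adjusted threshold), 359 to 850 for the BD, HD and VHD animals and 210 to 463 for the difference between the sets. The count in the BD, HD and VHD animals was 1219 without the category term. Where a cause is not named, the cause was not tested. The values of genes that changed sign follow as log2 differences. With the myelin level as a term, a myelin gene is measured against the mean of its own list, so negative signs among them follow from the construction. The marker component was likewise built from the cell type markers, so sign changes of such markers under it can follow in part from the construction. Under DESeq2 without LD cohort 4 replicate 1 the values were GABRA5 -0.27, IGF1 0.031 and NPY -0.064. Under a fit over all 30 libraries the values were DCX -0.038 and KL 0.019. Under array weights the values were GABRA5 -0.14, IGF1 0.012 and NPY -0.018. Under the library number as a term the values were CALB1 0.0019. Under log2 depth as a term the values were GABRA5 -0.058. Under a marker component as a term the values were CLDN11 -0.11, CNTN2 -0.20, DCN 0.077, DCX -0.019, FA2H -0.0057, GABRA5 -0.33, GFAP -0.11, IGF1 0.19, KLK6 -0.19, NPY -0.17, OLIG2 -0.046, PVALB 0.16, TTR 0.18 and VIP 0.14. Under the myelin level as a term the values were ADAMTS4 -0.26, CHST3 -0.088, CLDN11 -0.31, CNP -0.039, CNTN2 -0.30, CRYAB -0.071, DCN 0.060, DCX -0.043, ENPP2 -0.042, FA2H -0.17, GABRA5 -0.20, GFAP -0.35, IGF1 0.25, KLK6 -0.73, MAG -0.092, MOBP -0.057, NKX6-2 -0.27, NPY -0.32, OLIG2 -0.059, PVALB 0.37, TTR 0.32, TYMS -0.19 and VIP 0.22. Under a slope over mean age the values were CALB1 0.0022. Fitted without cohort 7a the values were APOE 0.076, GABRA5 -0.21, KL 0.037 and NPY -0.13. Fitted without cohort 7b the values were CALB1 0.056, CDKN1A 0.053 and DCX -0.026. Over the leave-one-out fits the genes that changed sign ranged as APOE -0.098 to 0.050, CALB1 -0.10 to 0.011, CDKN1A -0.26 to 0.0064, DCX -0.014 to 0.10, GABRA5 -0.24 to 0.17, IGF1 -0.23 to 0.025, KL -0.28 to 0.0079, NPY -0.044 to 0.46. No paired analysis was possible because the replicate numbers were given in accession order and carry no pairing. Without the shallowest library, replicate 1 of cohort 4, the adjusted count in limma was also 0.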
